A study of Homo sapiens with 12 samples.

Results

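The genes described here are the posterior end of the human HOXA cluster: the homeobox genes HOXA9, HOXA10, HOXA11 and HOXA13, the long non-coding RNA gene HOTTIP, which starts beside HOXA13, and EVX1, the homeobox gene that flanks this end of the cluster. They were taken by symbol from the deposited count table, which held all 6 of them among 56638 genes, and they are given in their order along the cluster. All 6 passed the filter on low counts and were among the 19130 genes tested. RNA was sequenced from NT2/D1 cells, human embryonal carcinoma cells in a pluripotent state that can be driven to differentiate by all-trans retinoic acid (ATRA). The 4 groups were: PRMT6 knockout cells given 1 µM ATRA for 3 days, CRISPR/Cas9 control cells given the same, untreated PRMT6 knockout cells and untreated CRISPR/Cas9 control cells. Each group had 3 libraries, and knockout and control were both made with CRISPR/Cas9. The labels name 1 knockout line, KO-2, so a difference between genotypes is also a difference between that line and the control cells. Whether replicate libraries stem from separate cultures is not stated, so p-values reflect only how far these libraries spread, which may be technical.

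HOX genes are transcription factors that are switched on along the cluster in the order of their position, with the anterior genes first and the posterior genes last, and the posterior members pattern the limb, the genital tract and the caudal body. Retinoic acid induces mainly the anterior genes in embryonal carcinoma cells, while Polycomb complexes hold the posterior ones silent. In human fibroblasts HOTTIP binds the adaptor protein WDR5 and brings the MLL histone methyltransferase complexes to the posterior HOXA genes, and PRMT6 methylates an arginine of histone H3 close to the lysine that those complexes methylate.

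The 6 genes have 7 start sites in RefSeq (GRCh38.p14), of which HOXA10 has 2, and 4 windows are shown because they differ most in what they hold. Each window is the 250 bases just before the start, given 5′ to 3′ on the strand of the gene. Capitals mark a match, on either strand, to the retinoid receptor half-sites AGGTCA and GGGTCA, to TTTAT (part of the sites of posterior HOX and CDX proteins) or to TATAAA. A match is a description of the letters only. The windows lie at chr7:27165538-27165787 (minus strand) for HOXA9, at chr7:27185233-27185482 (minus strand) for HOXA11, at chr7:27200092-27200341 (minus strand) for HOXA13 and at chr7:27242552-27242801 (plus strand) for EVX1.
HOXA9: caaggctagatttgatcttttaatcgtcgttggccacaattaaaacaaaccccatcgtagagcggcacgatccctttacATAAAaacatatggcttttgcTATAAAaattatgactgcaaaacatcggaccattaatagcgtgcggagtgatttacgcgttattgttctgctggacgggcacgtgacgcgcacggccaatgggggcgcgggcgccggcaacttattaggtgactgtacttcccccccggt
HOXA11: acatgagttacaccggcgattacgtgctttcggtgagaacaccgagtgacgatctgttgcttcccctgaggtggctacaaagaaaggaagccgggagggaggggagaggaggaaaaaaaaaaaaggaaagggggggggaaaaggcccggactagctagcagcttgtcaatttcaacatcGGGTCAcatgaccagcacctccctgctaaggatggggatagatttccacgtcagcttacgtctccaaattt
HOXA13: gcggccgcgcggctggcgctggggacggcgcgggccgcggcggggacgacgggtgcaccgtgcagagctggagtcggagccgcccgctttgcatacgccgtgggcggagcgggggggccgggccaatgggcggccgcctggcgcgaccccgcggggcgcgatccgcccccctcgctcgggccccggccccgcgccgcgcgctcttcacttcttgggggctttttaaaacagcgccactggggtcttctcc
EVX1: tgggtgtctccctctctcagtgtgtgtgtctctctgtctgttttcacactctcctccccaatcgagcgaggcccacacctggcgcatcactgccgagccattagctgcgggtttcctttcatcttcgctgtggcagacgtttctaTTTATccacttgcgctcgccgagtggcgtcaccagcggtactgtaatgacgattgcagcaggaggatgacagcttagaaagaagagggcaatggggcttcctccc

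AGGTCA was in none of the 7 windows and GGGTCA in 1, that of HOXA11, at 71 to 66 bases before the start; each is found in 12.1% of the 35116 windows of all genes. TTTAT was in the windows of HOXA9, HOXA10 and EVX1 and in 32.7% of all windows. TATAAA, which overlaps TTTAT where both occur in these windows, was in those of HOXA9 and HOXA10 and in 10.7% of all. The HOXA9 window held TATAAA at 150 to 145 bases before the start, and the EVX1 window held TTTAT at 105 to 101 bases before it. CCCTC, a core of the CTCF motif, was in 66.6% of all windows and in those of HOXA11, HOXA13, EVX1 and 1 of the 2 of HOXA10. HOXA13 and HOTTIP are transcribed away from each other from starts 329 bases apart, so their windows share 171 bases. Those windows were the richest of the 7 in CG pairs, with 40 for HOXA13 and 38 for HOTTIP, more than in 97.8% and 96.7% of all windows. HOXA9 had 20, HOXA11 11 and EVX1 13, against a median of 11 over all windows.

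Levels are given in CPM, a gene's count scaled to a common library size, always for replicates 1, 2 and 3 in that order. The 12 libraries held 25.5 to 60.4 M counts, at which 3 counts are 0.0432 to 0.128 CPM. PRMT6 had 0 to 2 counts in each knockout library and 110 to 1035 in each control library. All libraries expressed pluripotency genes, with 12 of 13 markers at 1 CPM or more in each. The library labelled control ATRA 2 went against its label: CYP26A1, the retinoic acid-degrading enzyme induced by ATRA, had 2 counts there, against 8328 and 479 in control ATRA 1 and 3. The library labelled control untreated 2 stood apart by the same gene, at 3.20 CPM of CYP26A1 from 182 counts, against 0.0267 and 0.0432 CPM in control untreated 1 and 3 and 0.0519 CPM in the library labelled control ATRA 2. Knockout ATRA 2 had 1018 CPM of CYP26A1, against 12.7 and 11.0 CPM in knockout ATRA 1 and 3. Knockout untreated 3 and knockout ATRA 2 stood apart from the other knockout libraries, with COL3A1 and DCN, genes of the extracellular matrix, far lower in both. Knockout untreated 1 and 2, and knockout ATRA 1 and 3, were close to identical, with chi-squares of 9.01 and 1.91 per gene against 78.1 to 416 for all other pairs within a group, and each test counts each of them as a library. Results on these genes are given with and without the libraries that stand apart.

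In untreated cells all 6 genes were higher in the knockout than in the control. The genes within the cluster were near 0 in the control. EVX1 was the one gene that the control cells also expressed. In RNA from whole cultures, fewer expressing cells and less RNA per cell cannot be told apart. By edgeR's quasi-likelihood test with Benjamini-Hochberg adjustment over all genes tested, 6 of 6 were called higher at an adjusted p under 0.05, where 13.0% of all genes were called higher and 34.9% were called in either direction. DESeq2 called 5 of the 5 to which it gave an adjusted p, where it called 40.9% of all genes in either direction, and limma-voom called 6 of 6, where it called 33.7%. The 3 knockout libraries lay above the 3 control libraries for 6 of 6 genes, which held for 20.9% of all genes. The median log2 fold change of the 6 was 7.36, against -0.11 over all genes tested.

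HOXA9, the first of the posterior genes, known for its role in blood stem cells and leukaemia, had 3.79, 3.96 and 4.11 CPM in untreated knockout libraries, against 0.0267, 0 and 0.0720 CPM in untreated control libraries. The 3 knockout values were close to each other, and the control values rested on 6 counts in all. Its log2 fold change was 6.67 ± 1.23 (SE; edgeR adjusted p = 0.00410), and 8.10 without control untreated 3, which held 5 of those 6 counts. HOXA10, which patterns the lumbar spine and the uterus, had 66.7, 65.5 and 57.8 CPM in the knockout, against 0.0533, 0.0176 and 0.202 CPM in the control. Here too every knockout library was far above every control library, and control untreated 3 was the highest of the controls. The log2 fold change of HOXA10 was 9.27 ± 1.18 (SE; edgeR adjusted p = 0.00141), or 10.79 without that library.

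HOXA11, a regulator of forearm, kidney and uterine development, had 76.2, 70.1 and 47.3 CPM in untreated knockout libraries, against 0.0533, 0.0352 and 0.101 CPM in untreated control libraries. Knockout untreated 3 was the lowest knockout library and still lay far above the controls, which held 11 counts in all. This was the largest fitted change of the 6, at 9.86 ± 0.72 on the log2 scale (SE; edgeR adjusted p = 5.92e-05), although without control untreated 3 it was 10.44, below that of HOXA10. HOXA13, which patterns the hand, the foot and the genital tract, had 11.2, 12.2 and 12.9 CPM in the knockout, against 0.107, 0.0176 and 0.0720 CPM in the control. The knockout libraries differed little among themselves, and the control libraries held 10 counts together. Its log2 fold change was 7.53 ± 0.69 (SE; edgeR adjusted p = 0.000249).

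HOTTIP had 2.49, 2.39 and 1.93 CPM in untreated knockout libraries, against 0, 0.0352 and 0 CPM in untreated control libraries, where 2 counts were found in all and both were in the library labelled control untreated 2. Because the control held so few counts, the change is given as the ratio of summed counts per scaled library, which was 188 with a 95% interval of 51.2 to 1561 that covers counting error only (edgeR adjusted p = 0.00103). The fitted log2 fold change of HOTTIP was 7.20 ± 0.79 (SE), with 9.38 without that library and 6.56 without control untreated 3. With counts thinned to the smallest library total, an alternative chosen after seeing the data, the untreated log2 fold changes of HOXA9, HOXA13 and HOTTIP were 7.92, 6.90 and 8.82. EVX1, which acts in the primitive streak and in spinal interneurons, had 37.1, 44.1 and 89.1 CPM in the knockout, against 7.52, 4.42 and 6.04 CPM in the control. Knockout untreated 3 was the highest library, at 2.20 times the mean of the other two, and the groups did not overlap. EVX1 rose by 3.24 ± 0.46 (SE) on the log2 scale (edgeR adjusted p = 0.00213), and by 2.76 without knockout untreated 3 and knockout ATRA 2. Without those libraries 6 of 6 genes were again called higher, where 22.7% of all genes were called in either direction. Without the libraries labelled control untreated 2 and control ATRA 2 the call was also made for 6 of 6, where it was made for 38.2% of all genes.

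**Figure D1:**
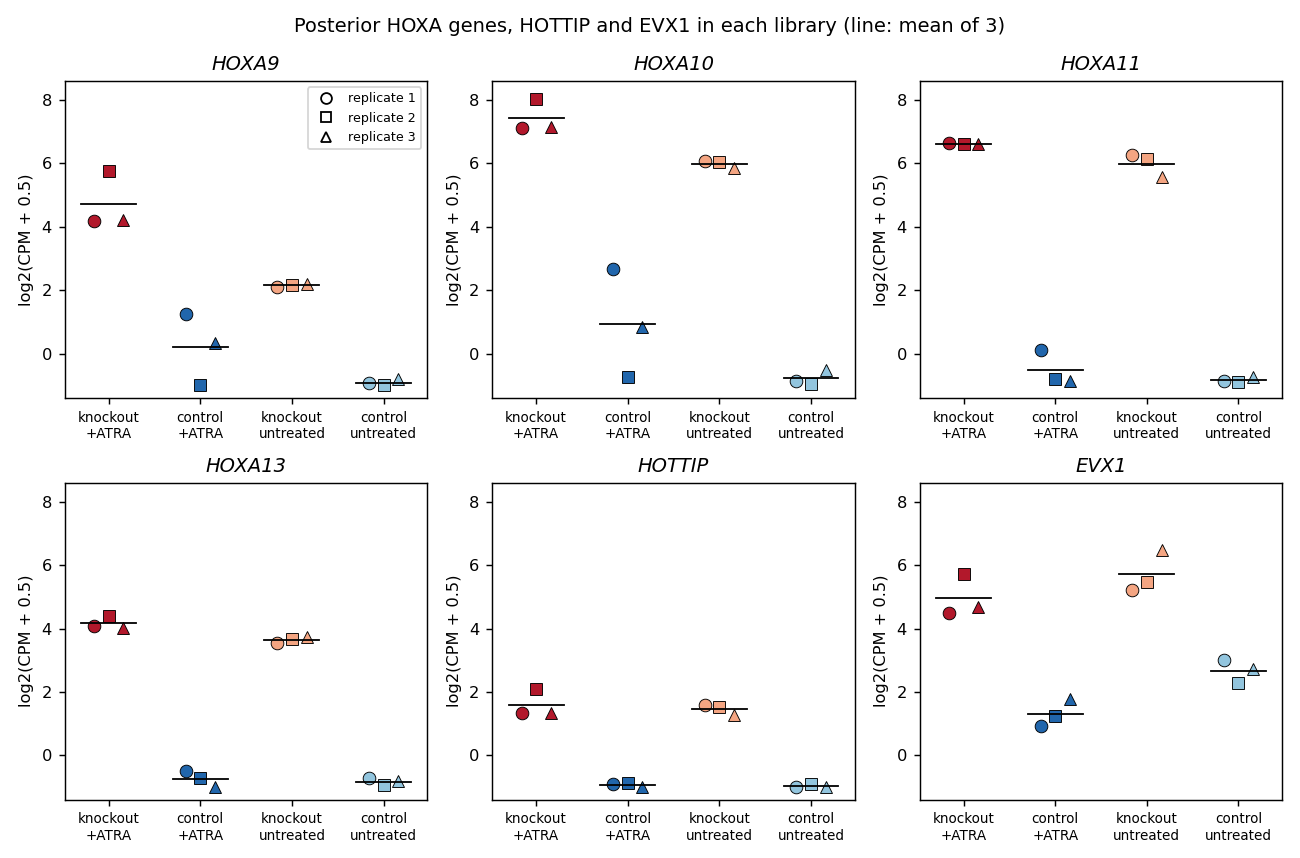
Level of each of the 6 genes in each library, as log2(CPM + 0.5) on the vertical axis, with the 4 groups on the horizontal axis, 1 symbol per replicate and a line at the mean of 3 libraries. In all 6 panels the knockout symbols lie above the control symbols of the same treatment; HOXA9 and HOXA10 of control ATRA 1 and 3 lie above untreated control, and EVX1 lies lower with ATRA in the control.

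With ATRA the knockout was again above the control for all 6 genes, although HOXA9 and HOXA10 were also present in control ATRA 1 and 3. The same test called 6 of 6 higher, where 3.27% of all genes were called higher and 7.51% in either direction. DESeq2 again called 5 of 5, where it called 15.5% of all genes, and limma-voom 6 of 6, where it called 5.31%. Without the library labelled control ATRA 2 edgeR called 6 of 6, where 3.21% of all genes were called. Libraries did not overlap for 6 of 6 genes, against 16.7% of all genes higher in this way. The median log2 fold change was 6.33, against -0.06 over all genes.

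HOXA9 had 17.8, 53.5 and 18.2 CPM in knockout libraries given ATRA, against 1.91, 0 and 0.751 CPM in control libraries given ATRA. Knockout ATRA 2 was 2.97 times the mean of the other two, and the one control library without a HOXA9 count was the library labelled control ATRA 2. Its log2 fold change was 5.09 ± 1.00 (SE; edgeR adjusted p = 0.0141). This was the least stable of the 6 calls: the log2 fold change was 4.35 without knockout ATRA 2, 4.49 without the library labelled control ATRA 2, 6.30 without control ATRA 1 and 3.76 (edgeR adjusted p = 0.0144) without knockout untreated 3, knockout ATRA 2 and the library labelled control ATRA 2. HOXA9 was not called when the near-identical libraries were summed (edgeR adjusted p = 0.0817) or when only the groups compared entered the fit (edgeR adjusted p = 0.0533), where 5 of 6 genes and 3.83% of all genes were called.

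HOXA10 had 139, 264 and 141 CPM in the knockout with ATRA, against 5.87, 0.104 and 1.30 CPM in the control with ATRA. Again knockout ATRA 2 was the highest library and the library labelled control ATRA 2 the lowest, and the groups were far apart. The log2 fold change was 6.24 ± 0.98 (SE; edgeR adjusted p = 0.00571), with 8.01 without control ATRA 1 and 5.29 without knockout untreated 3, knockout ATRA 2 and the library labelled control ATRA 2. HOXA11 had 99.6, 96.4 and 98.0 CPM in the knockout, against 0.584, 0.0779 and 0.0518 CPM in the control. The knockout libraries, knockout ATRA 2 included, were nearly equal, and control ATRA 1 held 19 of the 24 control counts. HOXA11 rose by 8.73 ± 0.67 (SE) on the log2 scale (edgeR adjusted p = 0.000106), and by 10.49 without control ATRA 1.

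HOXA13 had 16.6, 20.4 and 15.6 CPM in knockout libraries given ATRA, against 0.215, 0.104 and 0 CPM in control libraries given ATRA. No control library came near the knockout, and 7 of the 11 control counts were in control ATRA 1. Its log2 fold change was 7.37 ± 0.68 (SE; edgeR adjusted p = 0.000305), or 8.31 without that library. HOTTIP had 2.03, 3.81 and 2.04 CPM in the knockout, against 0.0307, 0.0519 and 0 CPM in the control, which held 3 counts. The ratio of its summed counts was 95.4 with a 95% interval of 32.3 to 465 for counting error (edgeR adjusted p = 0.00119). The fitted log2 fold change of HOTTIP was 6.42 ± 0.76 (SE), or 7.23 without the library labelled control ATRA 2. EVX1 had 21.8, 51.8 and 24.9 CPM in the knockout, against 1.38, 1.84 and 2.93 CPM in the control, again without overlap. Both means were lower than without ATRA. In the knockout the ranges with and without ATRA overlapped, and edgeR over all libraries called neither drop. The log2 fold change of EVX1 in the knockout over the control was 3.99 ± 0.48 (SE; edgeR adjusted p = 0.00119), or 3.50 without knockout untreated 3 and knockout ATRA 2. Without those libraries 6 of 6 genes were again called, HOXA9 at an edgeR adjusted p of 0.0498, where 4.47% of all genes were called. They were also called without the libraries labelled control untreated 2 and control ATRA 2, where 6.84% of all genes were called, and without knockout untreated 3, knockout ATRA 2 and the library labelled control ATRA 2, where 4.05% were. By limma-voom 4 of the log2 fold changes with ATRA were larger, at 6.67 for HOXA9, 7.54 for HOXA10, 9.38 for HOXA11 and 7.99 for HOXA13. Those of HOTTIP and EVX1 were slightly smaller, at 6.22 and 3.94.

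**Figure D2:**
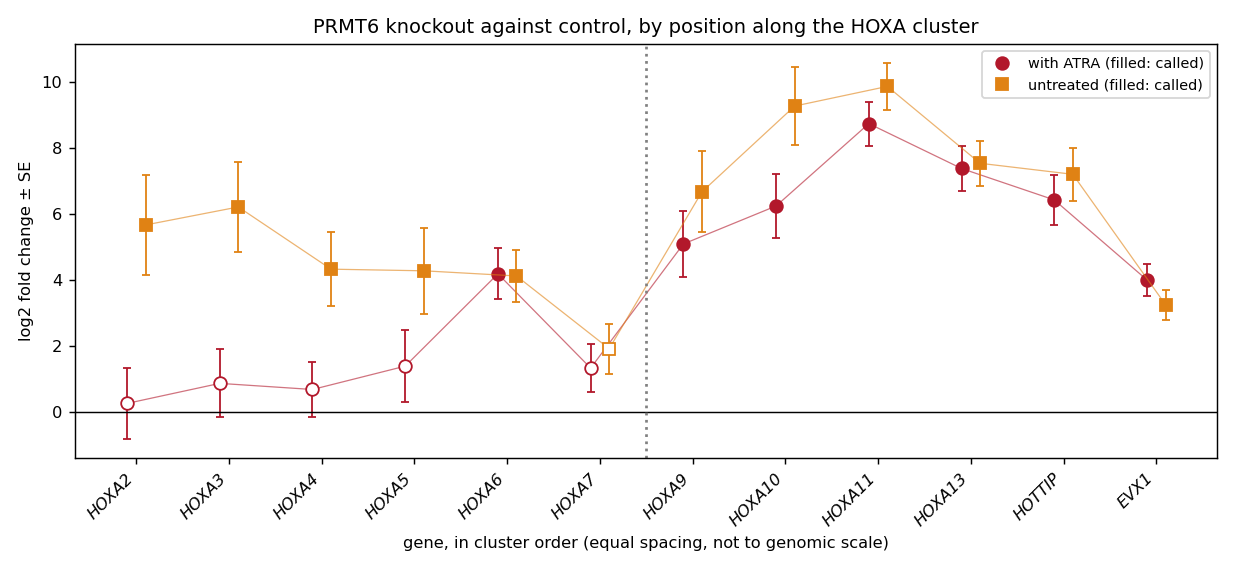
Log2 fold change of knockout over control with its standard error on the vertical axis, for HOXA2 to HOXA13, HOTTIP and EVX1 in cluster order on the horizontal axis, with ATRA (circles) and untreated (squares); filled symbols were called, and the dotted line separates HOXA7 from HOXA9. Both lines peak at HOXA11, at 8.73 with ATRA and 9.86 untreated, and the anterior genes other than HOXA6 lie between 0.25 and 1.38 with ATRA; the fitted HOTTIP values rest on 3 and 2 control counts.

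Genes at the other end of the cluster were also higher in the untreated knockout. In untreated cells 5 of the 6 genes HOXA2 to HOXA7 were called higher in the knockout, where 13.0% of all genes were. The median log2 fold change of the 6 was 4.30, with values from 1.91 for HOXA7 to 6.21 for HOXA3. With ATRA 1 of the 6 was called higher, where 3.27% of all genes were, and the median was 1.09. It was HOXA6, at 4.18 ± 0.77 (SE; edgeR adjusted p = 0.0106), and this call was lost in 1 of 25 alternative fits. Over 25 alternative fits the untreated call was lost in 0 for HOXA3 and HOXA6, in 3 each for HOXA2 and HOXA4, among them that without control untreated 3, and in 6 for HOXA5, among them those without control untreated 1 or 3 or knockout untreated 1 or 2. HOXA2, which patterns the hindbrain, had a log2 fold change of 0.25 ± 1.08 (SE). The difference between the ends of the cluster was not tested. Of 8 genes flanking the cluster on either side, none was called higher and 5 were called lower in untreated cells (median -1.39). Of all genes 13.0% were called higher and 21.9% lower there. With ATRA none of the 8 was called (median -0.46), where 7.51% of all genes were. HIBADH, a mitochondrial enzyme gene next to EVX1, fell by 1.48 ± 0.27 (SE) on the log2 scale in untreated knockout cells (edgeR adjusted p = 0.00418).

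Non-coding genes of the HOXA cluster and EVX1-AS, beside EVX1, were mostly higher in the knockout too. Of 10 listed, 6 were in the table and tested. Of these, 5 were called higher in the untreated knockout and 4 in the knockout with ATRA, where 13.0% and 3.27% of all genes were. The medians were 6.17 and 4.57 (5.99 untreated with HOXA10-AS at its bound). With ATRA the HOXA10-AS call was lost in 1 of 25 alternative fits and the HOXA-AS3 call in 7 of 24. HOXA11-AS, transcribed opposite HOXA11, had 38.3, 40.7 and 32.3 CPM in untreated knockout libraries, against 0.0267, 0 and 0.0720 CPM in untreated control libraries. It had 55.9, 67.1 and 56.7 CPM in the knockout with ATRA, against 0.123, 0.0260 and 0.0518 CPM in the control with ATRA. All knockout libraries were thus far above all controls, with log2 fold changes of 9.89 ± 0.56 untreated and 9.79 ± 0.55 with ATRA (SE; edgeR adjusted p = 6.24e-06 and 6.09e-06). HOXA10-AS was at least 105-fold higher in the untreated knockout, since the untreated control held 0 counts and a floor of 3 counts for the group was used. EVX1-AS rose by 2.15 ± 0.61 (SE) untreated and by 4.33 ± 0.74 (SE) with ATRA on the log2 scale (edgeR adjusted p = 0.0186 and 0.00883), and the untreated call was lost in 3 of 25 alternative fits, among them those without knockout untreated 3 or without the library labelled control untreated 2. The strand setting of the counting is not given in the sources used here, so reads of HOXA11 and HOXA11-AS, of HOXA10 or HOXA9 and HOXA10-AS, and of EVX1 and EVX1-AS may not be told apart.

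Set against their own partner, the antisense genes had overlapping shares with and without ATRA in the knockout libraries. HOXA11-AS had 0.561, 0.696 and 0.578 counts per HOXA11 count with ATRA, against 0.502, 0.580 and 0.683 untreated, ranges that overlap. The geometric mean of HOXA10-AS counts per HOXA10 count was 0.0292 with ATRA and 0.0290 untreated, and that of EVX1-AS per EVX1 count was 0.0425 with ATRA and 0.0423 untreated. An exact two-sided permutation test over the 3 and 3 libraries gave p = 0.8, 0.9 and 1, where 0.1 is the smallest p the design allows. A p above it does not show that the shares were equal.

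In control cells no gene of the 6 was called between ATRA and no treatment over the 3 libraries. Over all 3 ATRA libraries HOXA9 and HOXA10 overlapped with the untreated control, at 0 and 0.104 CPM in the library labelled control ATRA 2. In control ATRA 1 and 3 both were higher than in every untreated control library. That choice of libraries was made after seeing the data, and its share over all genes was not computed. EVX1 was lower in all 3 ATRA libraries than in any untreated one, as were 7.44% of all genes. HOXA10 had 5.87, 0.104 and 1.30 CPM in the control with ATRA, against 0.0533, 0.0176 and 0.202 CPM in the untreated control. Its log2 fold change was 4.55 ± 1.07 (SE; edgeR adjusted p = 0.0674), that of HOXA9 4.50 ± 1.22 (SE; edgeR adjusted p = 0.0837) and that of EVX1 -1.54 ± 0.44 (SE; edgeR adjusted p = 0.0928). HOXA11 had 1.73 ± 0.77 and HOXA13 0.69 ± 0.78 (SE; edgeR adjusted p = 0.225 and 0.648), with 95% intervals of 0.22 to 3.24 and -0.84 to 2.23, and HOTTIP, with 3 and 2 counts, gave no fold. By edgeR 0 of 6 were called, where 0.115% of all genes were called, and 4 of 6 had an unadjusted p under 0.05, as did 20.7% of all genes. DESeq2 called 2 of the 5 genes to which it gave an adjusted p, HOXA9 and EVX1, where it called 8.55% of all genes, and limma-voom called 0, where it called 0.157%. With no filter on low counts edgeR called 3, HOXA9, HOXA10 and EVX1, where 3.84% of all genes were called. Without the library labelled control ATRA 2, HOXA9 and HOXA10 were called with log2 fold changes of 5.09 and 5.11 (edgeR adjusted p = 0.00374 and 0.00260), where 12.3% of all genes were called. The same 2 genes were called without the libraries labelled control untreated 2 and control ATRA 2, where 9.87% of all genes were called, and with EVX1 as well without knockout untreated 3, knockout ATRA 2 and the library labelled control ATRA 2, where 11.0% were. Without control untreated 1, HOXA10 was called (edgeR adjusted p = 0.0464), where 12.4% of all genes were called. Without control ATRA 1 the log2 fold changes of HOXA9 and HOXA10 were 3.29 and 2.78 (edgeR adjusted p = 0.342 and 0.301). Without control untreated 3 they were 5.94 and 6.07 (edgeR adjusted p = 0.178 and 0.141).

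In knockout cells the log2 fold change with ATRA was largest at HOXA9 and smaller at each gene from there to EVX1, and none of the 6 was called. That order turned between HOXA11 and HOXA13 without knockout untreated 3 (0.42 and 0.58), without knockout ATRA 3 (0.60 and 0.61) and without knockout untreated 3 and knockout ATRA 2 (0.43 and 0.46). It also turned with the library labelled control ATRA 2 left out as well (0.43 and 0.46). HOXA9 averaged 29.8 ± 20.5 CPM with ATRA and 3.95 ± 0.157 CPM untreated (SD, n = 3 each), which gave 2.91 ± 0.90 on the log2 scale (SE; edgeR adjusted p = 0.209), and all ATRA libraries lay above all untreated ones. HOXA10 averaged 181 ± 71.8 CPM with ATRA and 63.3 ± 4.83 CPM untreated (SD, n = 3 each), which gave 1.52 ± 0.79 on the log2 scale (SE; edgeR adjusted p = 0.498), and its libraries did not overlap either. For HOXA11, HOXA13 and HOTTIP the log2 fold changes were 0.60 ± 0.45, 0.53 ± 0.48 and 0.21 ± 0.52 (SE), with 95% intervals of -0.29 to 1.49, -0.41 to 1.47 and -0.81 to 1.22. EVX1 had -0.79 ± 0.42 (SE; edgeR adjusted p = 0.509), the one negative value of the 6.

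By edgeR 0 of 6 were called, where 0.0314% of all genes were called, 1 of 6 had an unadjusted p under 0.05, as did 11.7% of all genes, and DESeq2 and limma-voom called 0, where they called 2.9% and 0.0%. With no filter on low counts edgeR called HOXA9 (0.742% of all genes), as it did without the library labelled control ATRA 2 (0.918%), and without the libraries labelled control untreated 2 and control ATRA 2 (2.93%). The ATRA libraries lay above the untreated ones for 4 of 6 genes, HOXA9, HOXA10, HOXA11 and HOXA13, against 17.2% of all genes. With only the knockout libraries in the fit HOXA9 and HOXA10 were called (edgeR adjusted p = 0.0182 and 0.0227), where 6.66% of all genes were called. Without knockout untreated 3 and knockout ATRA 2 the log2 fold changes of HOXA9 and HOXA10 were 2.22 and 1.08 and neither was called, as was 0.0% of all genes, and HOTTIP had -0.26.

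**Figure D3:**
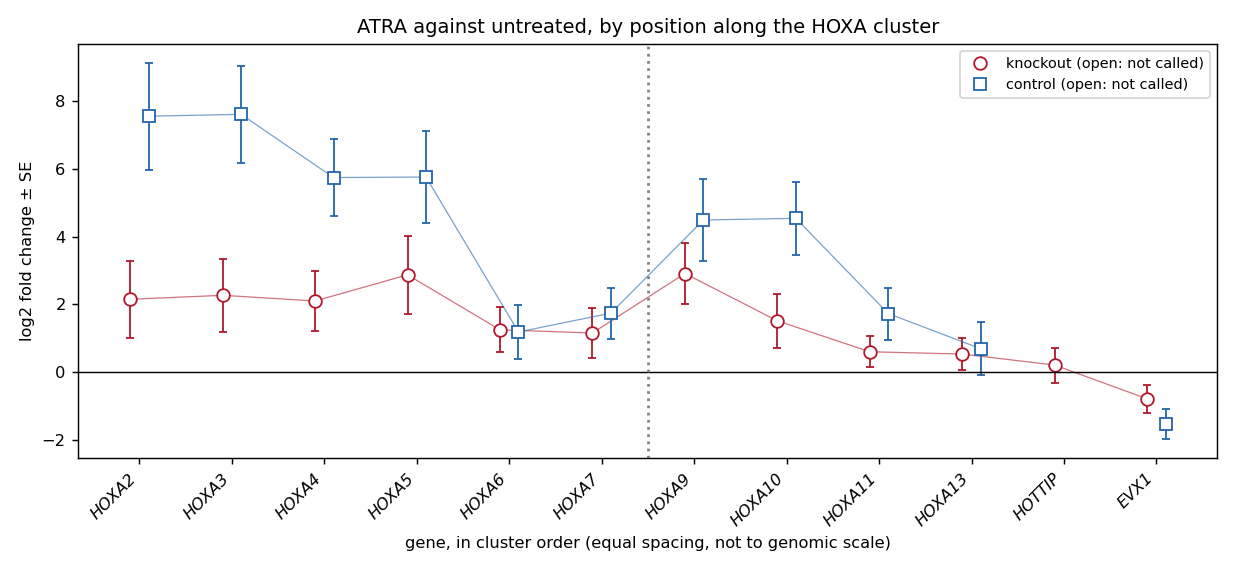
Log2 fold change of ATRA over untreated with its standard error on the vertical axis, for HOXA2 to HOXA13, HOTTIP and EVX1 in cluster order on the horizontal axis, in knockout (circles) and control cells (squares). No gene shown was called, so all symbols are open; HOTTIP in the control is left out because it had 3 and 2 counts. In both genotypes the values are lower at HOXA13 than at HOXA9 and negative at EVX1, at -0.79 in the knockout and -1.54 in the control.

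The response to ATRA was also set between the genotypes. The difference, knockout response minus control response on the log2 scale, was -1.58 ± 1.47 for HOXA9, -3.03 ± 1.32 for HOXA10, -1.13 ± 0.88 for HOXA11, -0.16 ± 0.80 for HOXA13 and 0.75 ± 0.60 for EVX1 (SE), with none given for HOTTIP because of its few control counts. A negative value means a smaller log2 response in the knockout, whose untreated level was higher. By edgeR 0 of these were called, as were 0.0% of all genes. HOXA10 was the one gene of these with an unadjusted p under 0.05 (edgeR unadjusted p = 0.0398, adjusted p = 0.509), where 9.76% of all genes had one. DESeq2 and limma-voom called 0 of them too, where they called 0.068% and 0.0% of all genes. Without the library labelled control ATRA 2 the HOXA10 value was -3.59 (edgeR adjusted p = 0.189). It was -1.26 without control ATRA 1 and -4.55 without control untreated 3, and that of HOXA9 ran over -3.02 to -0.37 in the fits that left out 1 library.

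Ratios within a library do not depend on library scaling and show how the balance among the posterior genes differed with ATRA in the knockout. HOXA9 had 1.07, 2.62 and 1.17 counts per HOXA13 count in knockout libraries given ATRA, against 0.338, 0.325 and 0.318 in untreated knockout libraries. The ATRA values were all higher, 4.55-fold by the geometric means. HOXA10 had 8.37, 12.9 and 9.04 counts per HOXA13 count with ATRA, against 5.93, 5.39 and 4.47 untreated, 1.90-fold and again without overlap. EVX1 ran the other way, with 1.31, 2.54 and 1.60 counts per HOXA13 count with ATRA, against 3.30, 3.62 and 6.90 untreated, a ratio of 0.401 of the geometric means. HOXA11 and HOTTIP per HOXA13 count overlapped between the treatments, at 1.08 and 0.772 times the untreated ratio. The exact two-sided permutation p was 0.1 for HOXA9, HOXA10 and EVX1, the smallest that 3 against 3 libraries allow, and 0.225 after adjustment over the 9 ratios computed. Each group of 3 holds a near-identical pair, so these libraries are not fully independent.

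**Figure D4:**
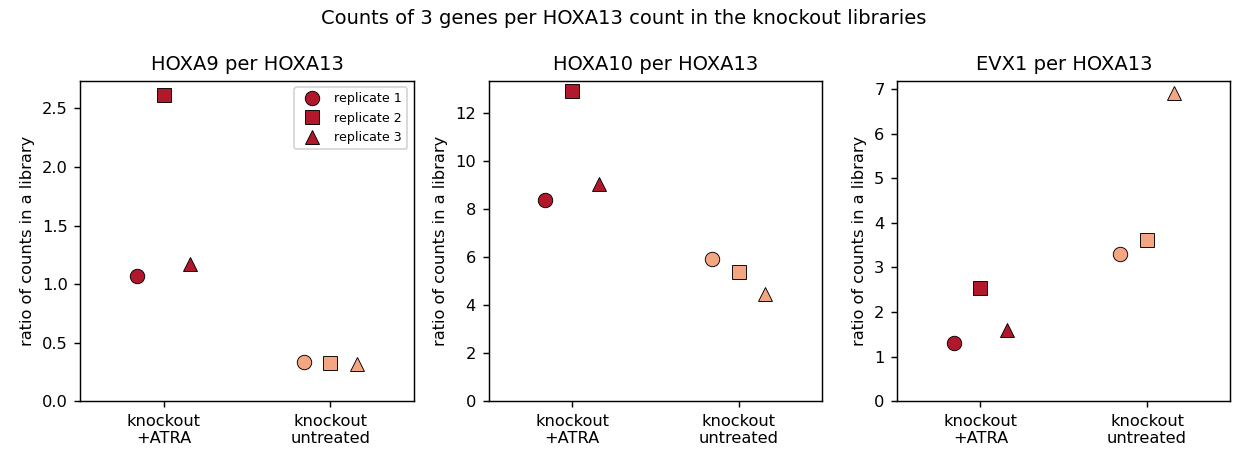
Counts of HOXA9, HOXA10 and EVX1 per HOXA13 count in the same library (vertical axis, from 0) in the 3 knockout libraries given ATRA and the 3 untreated knockout libraries (horizontal axis), 1 symbol per replicate. The ATRA symbols lie above the untreated ones for HOXA9 and HOXA10 and below them for EVX1.

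Levels can be compared between genes only per length, and were divided by the deposited gene length for that purpose (CPM per kilobase, mean ± SD, n = 3). In the knockout with ATRA the order was HOXA10 at 48.9 ± 19.4, HOXA11 at 42.5 ± 0.696, HOXA9 at 11.7 ± 8.04, EVX1 at 10.6 ± 5.32, HOXA13 at 3.76 ± 0.551 and HOTTIP at 0.523 ± 0.205. The ranges of HOXA10 and HOXA11 overlapped, as did those of HOXA9 and EVX1, and the other neighbours in this order did not. In the control with ATRA EVX1, at 0.660 ± 0.255, and HOXA10, at 0.654 ± 0.821, came first, and every neighbouring pair overlapped. In the untreated knockout the order was HOXA11 at 28.0 ± 6.62, EVX1 at 18.2 ± 9.08, HOXA10 at 17.1 ± 1.30, HOXA13 at 2.60 ± 0.181, HOXA9 at 1.55 ± 0.0616 and HOTTIP at 0.452 ± 0.0602. HOXA11 overlapped with EVX1 and EVX1 with HOXA10, and the other neighbours did not. HOXA9 lay below HOXA13 here and above it with ATRA. In the untreated control EVX1 stood at 1.93 ± 0.499, far above HOXA11 at 0.0274 ± 0.0147, and each neighbouring pair of genes within the cluster overlapped.

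**Figure D5:**
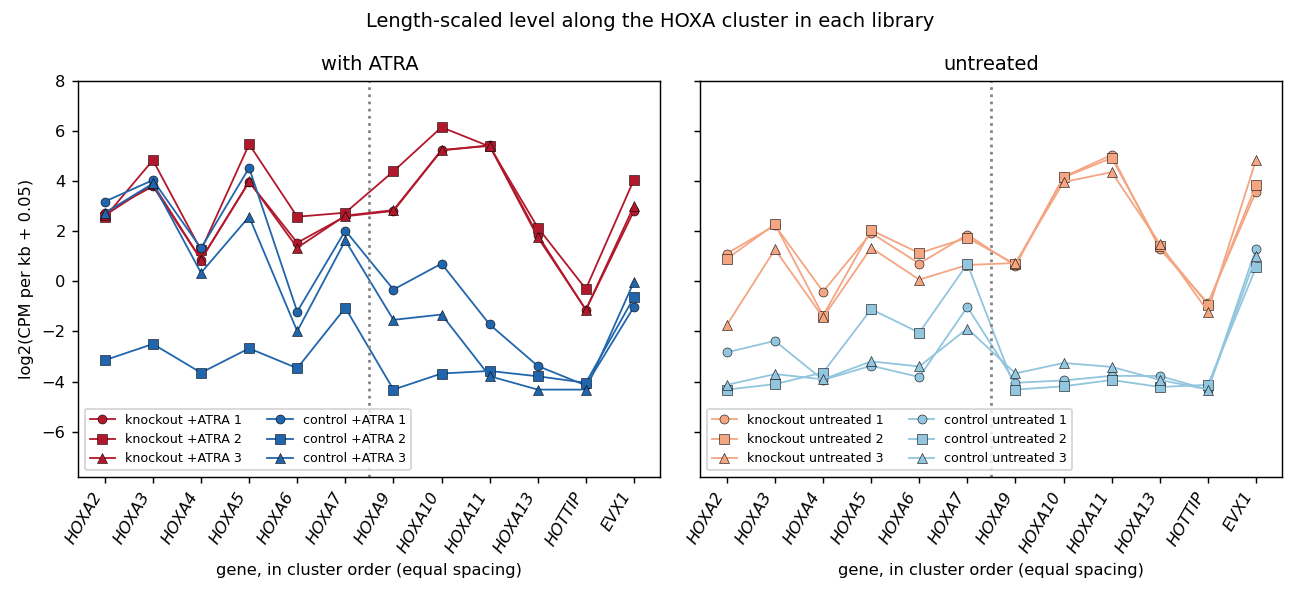
Level per length as log2(CPM per kb + 0.05) on the vertical axis for HOXA2 to HOXA13, HOTTIP and EVX1 in cluster order on the horizontal axis, 1 line per library, with ATRA in the left panel and untreated in the right. Right of the dotted line the knockout lines lie above the control lines in both panels; left of it the lines of control ATRA 1 and 3 run near the knockout lines except at HOXA6, while that of the library labelled control ATRA 2 stays low.

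Posterior HOX genes of the other clusters, which share ancestry with these, also rose in the knockout. Of 13 listed genes 12 were tested. All 12 were called higher untreated and 10 with ATRA, where 13.0% and 3.27% of all genes were. The medians were 2.82 untreated and 3.36 with ATRA (3.06 with HOXC11 and HOXC12 at their bounds). HOXC11, the paralog of HOXA11, was at least 390-fold higher untreated and at least 307-fold higher with ATRA, as every control library held 0 counts and the same floor of 3 counts per group was used. HOXD13, a paralog of HOXA13 and a limb gene of the HOXD cluster, rose by 2.69 ± 0.42 untreated and 3.08 ± 0.43 with ATRA on the log2 scale (SE; edgeR adjusted p = 0.00286 and 0.00321), and HOXC13, which acts in hair follicles, by 1.08 ± 0.28 and 1.09 ± 0.28 (SE; edgeR adjusted p = 0.0125 and 0.0357). The HOXC13 call with ATRA was lost in 15 of 25 alternative fits, with edgeR adjusted p up to 0.166. EVX2, which flanks the HOXD cluster as EVX1 flanks HOXA, rose by 3.38 ± 0.55 untreated and 3.04 ± 0.54 with ATRA on the log2 scale (SE; edgeR adjusted p = 0.00294 and 0.00970). The EVX2 call with ATRA was lost in 1 of 25 alternative fits, the HOXB9 call with ATRA in 9 and the untreated HOXC13 call in 2.

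Genes of the proteins known to act on HOX chromatin were counted as well. Of 7 genes of the WDR5 and MLL complexes, through which HOTTIP acts, none was called higher and 2 were called lower in the untreated knockout (median 0.35), and none was called with ATRA (median -0.03). WDR5 itself had a log2 fold change of 0.52 ± 0.25 untreated (SE; edgeR adjusted p = 0.117), while the complex subunits DPY30 and ASH2L fell by 1.89 ± 0.39 and 0.73 ± 0.21 (SE). Of 5 genes of Polycomb complex 2, which methylates silent HOX chromatin, the subunit genes SUZ12 and EED were called lower untreated, by 1.66 ± 0.41 and 1.21 ± 0.31 on the log2 scale (SE; edgeR adjusted p = 0.0112 and 0.0134), and none was called with ATRA. With the trend by GC content removed, DPY30 was at -1.06, SUZ12 at -0.66 and EED at 0.10, and none of these was called. Over 25 alternative fits DPY30 was not called in 2, ASH2L in 4, SUZ12 in 4 and EED in 5, among them fits without control untreated 3 (SUZ12, EED), knockout untreated 1 (ASH2L, EED) or knockout untreated 2 (ASH2L, SUZ12, EED). In untreated cells 13.0% of all genes were called higher and 21.9% lower. With ATRA 7.51% of all genes were called in either direction, so no call among 5 or 7 genes is near that share. Of 7 inducers of posterior identity 4 were called higher untreated, where 13.0% of all genes were, and none was called with ATRA, where 7.51% were. Among the 4 were the caudal genes CDX1 and CDX2, at 5.65 ± 1.57 and 2.78 ± 0.85 on the log2 scale (SE; edgeR adjusted p = 0.0171 and 0.0257). The CDX1 call was lost in 3 of 25 alternative fits, among them that without the library labelled control untreated 2, and the CDX2 call in 6, among them those without control untreated 3 or without knockout untreated 3 (2.16; edgeR adjusted p up to 0.0984 over the 25).

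Of 18 listed genes of limb and genital development 17 were tested. Untreated, 9 were called higher and none lower (median 1.40), where 13.0% and 21.9% of all genes were. With ATRA 4 were called higher and 1 lower (median 0.68), where 3.27% and 4.24% of all genes were. HAND2, a regulator of limb polarity and the uterine stroma, rose by 8.39 ± 1.20 untreated and 6.32 ± 1.09 with ATRA on the log2 scale (SE; edgeR adjusted p = 0.00232 and 0.00883), and TBX2, a T-box repressor of the limb, by 7.73 ± 1.06 and 4.65 ± 0.90 (SE; edgeR adjusted p = 0.00192 and 0.0131). With ATRA both calls were lost with the near-identical libraries summed, and that of TBX2 also without knockout ATRA 3.

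Markers of stromal cells, which carry posterior HOX codes of their own, were higher in sum in the knockout, though not marker by marker in every library. The summed level of 12 fibroblast markers was 2275 to 12495 CPM in the knockout with ATRA and 306 to 1552 CPM in the control with ATRA, and 2292 to 14036 CPM in the untreated knockout and 465 to 587 CPM in the untreated control. Of the 12, 7 were called higher and 1 lower in the untreated knockout, and 3 higher and 0 lower with ATRA. Among all genes 13.0% were called higher and 21.9% lower untreated, and 3.27% higher and 4.24% lower with ATRA. In the knockout 9 to 12 of the 12 were at 1 CPM or more, and in the control 9 to 10. The lowest knockout sums, 2275 and 2292 CPM, were those of knockout ATRA 2 and knockout untreated 3. Both were above the sum in every control library. Of the list, COL3A1 was at 1669 CPM in knockout ATRA 2 and 1318 CPM in knockout untreated 3, most of either sum, and DCN at 0.264 and 0.128 CPM. Control ATRA 1 and 3 averaged 591 CPM of COL3A1 and 0.214 CPM of DCN. Control untreated 1 and 3 averaged 95.2 and 0.0926 CPM, so DCN in those 2 knockout libraries was near its control level. The part of such cells in the results was not tested. Endoderm markers summed to 4.22 to 41.2 CPM in the knockout with ATRA, against 0.805 to 1.99 CPM in the control with ATRA, and to 33.2 to 51.1 CPM in the untreated knockout, against 0.458 to 1.22 CPM in the untreated control. Of these 4 markers 1 was at 1 CPM or more in the knockout with ATRA, 1 to 2 in the untreated knockout and 0 to 1 in the control. Of the 3 endoderm markers tested, 2 were called higher untreated and 1 with ATRA, and 0 lower. Neural progenitor markers summed to 662 to 795 CPM in the knockout with ATRA, against 525 to 1229 CPM in the control with ATRA, and to 570 to 655 CPM in the untreated knockout, against 296 to 880 CPM in the untreated control. In each knockout library 1 of these 7 markers was at 1 CPM or more. In the control 2 to 3 were with ATRA and 2 to 5 untreated. Of the 4 neural markers tested, 3 were called lower untreated and 2 with ATRA, and 0 higher (medians -3.21 and -1.69). Blood markers summed to 21.9 to 32.6 CPM in the knockout with ATRA, against 7.19 to 30.8 CPM in the control with ATRA, and to 16.7 to 20.4 CPM in the untreated knockout, against 2.59 to 13.5 CPM in the untreated control.

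Outside the HOXA cluster, the genes whose level most resembled the mean pattern of HOXA9, HOXA10, HOXA11, HOXA13 and HOTTIP were PPM1F, ZBTB4, ZFPL1, GLTP, SNX18P16 and GLIS3. Likeness was Pearson's r of log2(CPM + 0.5) over the 12 libraries, among 11916 genes with at least 5 CPM on average in 1 group or more, and ran from 0.971 for GLIS3 to 0.983 for PPM1F. Genes with a clone-based, antisense or small RNA symbol were not ranked. These libraries fall into 4 groups and share the genotype contrast, so r describes mainly that contrast. PPM1F, a protein phosphatase gene, averaged 99.4 CPM in the knockout with ATRA, against 39.0 CPM in the control with ATRA, and 94.1 CPM in the untreated knockout, against 33.6 CPM in the untreated control. GLIS3, which encodes a zinc finger transcription factor, averaged 8.35 CPM in the knockout with ATRA, against 0.959 CPM in the control with ATRA, and 4.82 CPM in the untreated knockout, against 0.305 CPM in the untreated control. SNX18P16 is a pseudogene and may share reads with its copies.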

How the data were processed

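The authors deposited 1 table of raw counts per gene for 12 libraries with a gene length column in bases, also from the authors. Per the labels' protocols, the libraries were stranded mRNA libraries. Per the submitters' processing notes the tools were bcl2fastq, TopHat2, Subread, featureCounts and DESeq2, on hg19 (GRCh37); neither their versions nor the strand setting could be taken from those notes. The deposited counts were tested with edgeR 4.0.16 (R 4.3.3): filterByExpr with a minimum count of 10 kept 19130 of 56638 genes, libraries were scaled by TMM, and 1 quasi-likelihood model with a coefficient per group was fitted to all 12 libraries. Benjamini-Hochberg adjustment ran over all 19130 genes, and calls required an adjusted p under 0.05. Standard errors are the log2 fold change divided by the root of the F statistic. The 95% intervals of log2 fold changes were taken from these by the normal distribution, so they are narrower than the quasi-likelihood test would give. CPM use the TMM-scaled totals. Intervals of count ratios (95%) and the floor of 3 counts over a group cover counting error only. Group folds against 0 counts are lower bounds. The script was tested on simulated counts. Alternatives were DESeq2 1.42.0, limma-voom 3.58.1, other scaling, filters and sample sets, a replicate block, a GC correction and the leaving out of libraries.

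The members are all named. Other genes are named from lists of the HOXA cluster, its flanks, posterior HOX paralogs, chromatin complexes, posterior inducers and limb genes, of which 1 gene is not reported here, and the 6 genes of most similar pattern are added. The members and lists were chosen with earlier results of these data known. Promoter windows are from RefSeq (GRCh38.p14), a newer build than that of the counts, and all 6 members were matched by symbol.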

Additional observations from a re-analysis of the deposited data

How the results depend on the processing

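Among the 6 genes, the count called higher in the knockout was 6 of 6 in both treatments in every fit that left out 1 library. DESeq2 gave no adjusted p to HOXA10 and called the other 5, and HOXA9 with ATRA was lost under the 2 settings named with its value. With ATRA against untreated control the count was 0, but 2 with DESeq2, 3 with no filter on low counts, 2 without the libraries labelled control untreated 2 and control ATRA 2, 3 without knockout untreated 3, knockout ATRA 2 and control ATRA 2, and 0 to 2 over the fits that left out 1 library. With ATRA against untreated knockout it was 0, but 1 with no filter, 2 with the compared groups only, 1 without the libraries labelled control untreated 2 and control ATRA 2, and 0 to 1 over the fits that left out 1 library. The causes were not tested.

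Signs turned for values that had not been called, and for EED. EED in the untreated knockout was 0.10 with the GC trend removed. In the knockout against the control with ATRA, leaving out knockout untreated 3, knockout ATRA 2 and control ATRA 2 gave -0.29 for HOXA2, -0.14 for HOXA3 and -0.041 for HOXA4. HOXA2 had -0.33 without the libraries labelled control untreated 2 and control ATRA 2, and -0.33 to 0.90 over the fits that left out 1 library. Over those fits the control response to ATRA ran over -0.019 to 2.32 for HOXA11 and -0.24 to 1.30 for HOXA13, both lowest without control ATRA 1. The knockout response of HOTTIP ran over -0.16 to 0.37, and was -0.26 without knockout untreated 3 and knockout ATRA 2 and also -0.26 with control ATRA 2 left out too. The response in the knockout minus that in the control ran over -1.71 to 0.62 for HOXA11 and -0.80 to 0.78 for HOXA13, and for HOXA13 it was 0.37 with limma-voom, 0.32 without the libraries labelled control untreated 2 and control ATRA 2, and 0.46 with counts thinned to the smallest total.

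Leaving out control untreated 2 and control ATRA 2, leaving out the 3 libraries, and thinning were chosen after seeing the data. Deviations from the group mean of same-numbered libraries correlated at -0.590 to 0.512. With 3 libraries per group, of which some stand apart, this cannot show whether replicate numbers pair the libraries. With the replicate block 6, 6, 0, 0 and 0 of the 6 genes were called in the 5 comparisons, as without it, and 761 of all genes were called for knockout against control with ATRA, against 1437 without the block. Over all genes the calls for untreated knockout against control were 6676, with 1072 after near-identical libraries were summed and 3191 with the GC trend removed. For knockout against control with ATRA they were 1437, with 2964 by DESeq2, 2317 with no filter, 732 with the compared groups only and 71 with near-identical libraries summed. For ATRA in the control they were 22, with 1636 by DESeq2, and for ATRA in the knockout 6, with 554 by DESeq2 and 1275 with the compared groups only. Over the fits that left out 1 library these calls over all genes ran over 3058 to 8454 for untreated knockout against control, 219 to 2128 with ATRA (219 without knockout ATRA 3), 0 to 2457 for ATRA in the control and 0 to 181 for ATRA in the knockout. The difference in response had 0, with 13 by DESeq2 and 0 to 135 over those fits. Depth limits the control values of HOXA9 to HOTTIP, most of which rest on under 10 counts per untreated library.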
